A study of Mus musculus with 12 samples.

Results

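BV2 cells, an immortalized line of mouse microglia, that received 30 µM 6-shogaol and then lipopolysaccharide (LPS) were compared with cells that received neither. LPS is an endotoxin of Gram-negative bacteria that activates the receptor TLR4, and 6-shogaol is a pungent phenol of dried ginger that carries an α,β-unsaturated ketone. The comparison rests on 4 of the 12 RNA sequencing libraries of the study, 2 with 6-shogaol and LPS and 2 untreated. It covers every gene with enough counts to be tested, 12705 of the 43432 in the gene tables. It asks what state the treated cells ended in: which changes made by LPS remained, which genes went past the untreated level to the other side, and which genes changed that LPS alone did not move.

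All groups were the same line, and no label gives a genetic change. Serum was withdrawn 24 h after seeding, for 4 h or longer. The compound was given 1 h before LPS at 100 ng/mL, and the time from LPS to harvest is not given in the sources used here. The group with LPS alone (2 libraries) served to sort the genes, and values of the groups with LPS and 10 µM 6-shogaol or 30 µM 6-gingerol, 2 libraries each, are given beside some results. No group received 6-shogaol without LPS, so what the compound does to resting cells and what it does to the LPS response cannot be told apart. No label says whether the 2 libraries of a group came from separate cultures, so p-values measure only the spread between these samples, which may be technical.

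Resting microglia survey tissue, and TLR4 activation makes them transcribe cytokines, chemokines and enzymes such as inducible nitric oxide synthase through NF-kB, followed by interferon-stimulated genes through factors such as those of the IRF family. Electrophiles can modify the sensor protein KEAP1 and so release NRF2, which turns on genes of glutathione and NADPH metabolism. Other programs that cells set against the same resting level are the ATF4 stress response, the heat shock response of HSF1, sterol synthesis under SREBP and the E2F genes of DNA replication.

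The untreated libraries held 19784878 and 20271750 expected counts and those with 6-shogaol and LPS 16535052 and 18065906, within the range of 16534960 to 21179867 over all 12. Levels are given as CPM, with every library brought to the same effective size, and a gene was called at an adjusted p under 0.05 by edgeR's quasi-likelihood test over all genes tested. The macrophage genes Csf1r, Itgam, Adgre1 and Spi1 were abundant in every library used, for example 321 and 377 CPM of Csf1r in untreated cells and 351 and 288 CPM with 6-shogaol and LPS. The microglial genes Sall1 and Siglech were at 0, and P2ry12 and Cx3cr1 stayed at or under 1.09 CPM in the untreated, LPS and 30 µM 6-shogaol libraries. Markers of neurons summed to at most 0.169 CPM in a library of the comparison, those of fibroblasts and endothelium to at most 0.733 CPM, and those of lymphocytes and neutrophils to at most 3.30 CPM. The 9 oligodendrocyte markers summed to 13.9 to 18.3 CPM, most of it Cnp, while Olig1, Olig2, Mag and Mog were at 0. The 9 astrocyte markers summed to 65.3 and 74.0 CPM in untreated cells and 108 and 93.2 CPM with 6-shogaol and LPS. Most of this was Aldoc, at 59.1 and 67.8 CPM and 97.9 and 84.5 CPM in the same order. Gfap, Aqp4, Sox9 and Slc1a3 were at 0, and the part of these markers in the results was not tested.

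Upstream regions of 6 genes are shown first, because their genes stand for the 6 patterns described afterwards: chemokine and interferon genes that stayed up, a cytokine that went below untreated, antioxidant genes that went above LPS, and a replication gene that rose although LPS alone did not call it. Each is the 250 bases before the RefSeq start (GRCm38.p6), 5′ to 3′ on the gene's strand. The region of Cdc6 lies before its RefSeq start but within the gene by the GENCODE position given further below. Capitals mark matches on either strand to the motif named for the gene. The regions are Cxcl10 at chr5:92348890-92349139, minus strand; Rsad2 at chr12:26456453-26456702, minus strand; Il6 at chr5:30012864-30013113, plus strand; Gsta3 at chr1:21240335-21240584, plus strand; Slc7a11 at chr3:50443614-50443863, minus strand; and Cdc6 at chr11:98907901-98908150, plus strand.
Cxcl10: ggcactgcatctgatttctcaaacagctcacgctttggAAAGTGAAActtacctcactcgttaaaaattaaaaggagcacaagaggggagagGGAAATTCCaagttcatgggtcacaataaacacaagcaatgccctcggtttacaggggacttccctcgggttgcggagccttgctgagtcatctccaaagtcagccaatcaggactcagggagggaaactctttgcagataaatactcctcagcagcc
Rsad2: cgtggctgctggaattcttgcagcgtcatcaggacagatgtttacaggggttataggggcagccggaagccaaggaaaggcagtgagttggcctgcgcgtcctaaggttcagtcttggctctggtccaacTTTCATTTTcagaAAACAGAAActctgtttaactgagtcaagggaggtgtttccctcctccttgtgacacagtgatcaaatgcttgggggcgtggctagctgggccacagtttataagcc
Il6: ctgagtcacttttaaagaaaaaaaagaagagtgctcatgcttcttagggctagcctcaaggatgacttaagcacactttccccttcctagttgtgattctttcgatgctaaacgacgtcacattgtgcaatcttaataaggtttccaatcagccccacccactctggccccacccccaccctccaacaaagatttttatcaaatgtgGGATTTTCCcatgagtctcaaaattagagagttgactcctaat
Gsta3: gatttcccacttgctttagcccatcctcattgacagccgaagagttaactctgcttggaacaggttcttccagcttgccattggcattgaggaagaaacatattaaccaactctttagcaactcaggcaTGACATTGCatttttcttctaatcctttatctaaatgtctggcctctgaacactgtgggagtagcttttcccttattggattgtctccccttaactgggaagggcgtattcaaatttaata
Slc7a11: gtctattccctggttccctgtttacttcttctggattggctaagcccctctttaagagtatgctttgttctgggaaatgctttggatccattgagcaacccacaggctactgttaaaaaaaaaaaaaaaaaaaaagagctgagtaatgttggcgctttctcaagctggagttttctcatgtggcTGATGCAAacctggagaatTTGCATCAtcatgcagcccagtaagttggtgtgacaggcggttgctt
Cdc6: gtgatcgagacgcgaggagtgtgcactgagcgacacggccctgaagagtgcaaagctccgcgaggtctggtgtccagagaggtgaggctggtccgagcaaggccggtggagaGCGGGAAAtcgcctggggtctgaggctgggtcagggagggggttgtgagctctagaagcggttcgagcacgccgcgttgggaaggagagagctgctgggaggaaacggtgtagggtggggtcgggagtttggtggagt

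In Cxcl10 the capitals are an interferon stimulated response element (AAANNGAAA) and an NF-kB site (GGANTTTCC), in Rsad2 a pair of interferon elements, and in Il6 an NF-kB site. In Gsta3 they are an antioxidant response element (TGACNNNGC), in Slc7a11 a pair of amino acid response elements (TGATGNAA), and in Cdc6 an E2F site (TTTGGCGC or TTTCCCGC). The Slc7a11 region shown holds no match to the antioxidant letters. A match is a description of letters and not a site shown to be bound. The interferon element was in 9.37% of all 32851 upstream regions, in 7.05% of those of tested genes and in 52.4% of the 42 regions of the interferon list. The NF-kB letters were in 1.07% of all regions, 1.12% of those of tested genes and 28.6% of the 14 regions of the cytokine list. The share of a list covers only the members that have a region here. The 14 regions come from 12 genes, in a list of 33. The E2F letters were in 1.3% of all regions, 2.47% of those of tested genes, 19.2% of the 52 regions of the replication list and 5.10% of the 843 regions of genes that rose, were not called with LPS alone and were called higher than with LPS alone. The antioxidant letters were in 10.2% of all regions, 11.7% of those of tested genes and 21.6% of the 37 regions of the NRF2 list. Other lists had like shares, 21.2% of the 33 regions of the ATF4 list, 20.0% of the 35 of the chaperone list and 19.2% of those of the replication list. The amino acid response letters were in 3.45% of all regions and 24.2% of those of the ATF4 list.

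Against untreated cells, 3229 genes were called with 6-shogaol and LPS, 1696 higher (13.3% of the genes tested) and 1533 lower (12.1%). The counts of each gene list below are to be read beside these shares. The median change was 0.56 on the log2 scale among the higher and -0.59 among the lower, and 284 and 262 genes changed by at least 1 log2 unit. LPS alone called fewer genes, 973 higher (7.66%) and 528 lower (4.16%). Against LPS alone, 1601 genes were higher (12.6%) and 1621 lower (12.8%) with 30 µM 6-shogaol. The first principal component, 34.4% of the variance, placed the 6-shogaol libraries at -31.24 and -30.85 and the untreated ones at -29.46 and -30.84. The second, 19.9%, set them apart, at -28.32 and -29.24 against 30.73 and 28.94. Fewer cells of a kind and less RNA per cell cannot be told apart in these pooled cultures. Without 6-shogaol replicate 1, 994 genes were called lower, and without replicate 2, 796 were.

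**Figure D1:**
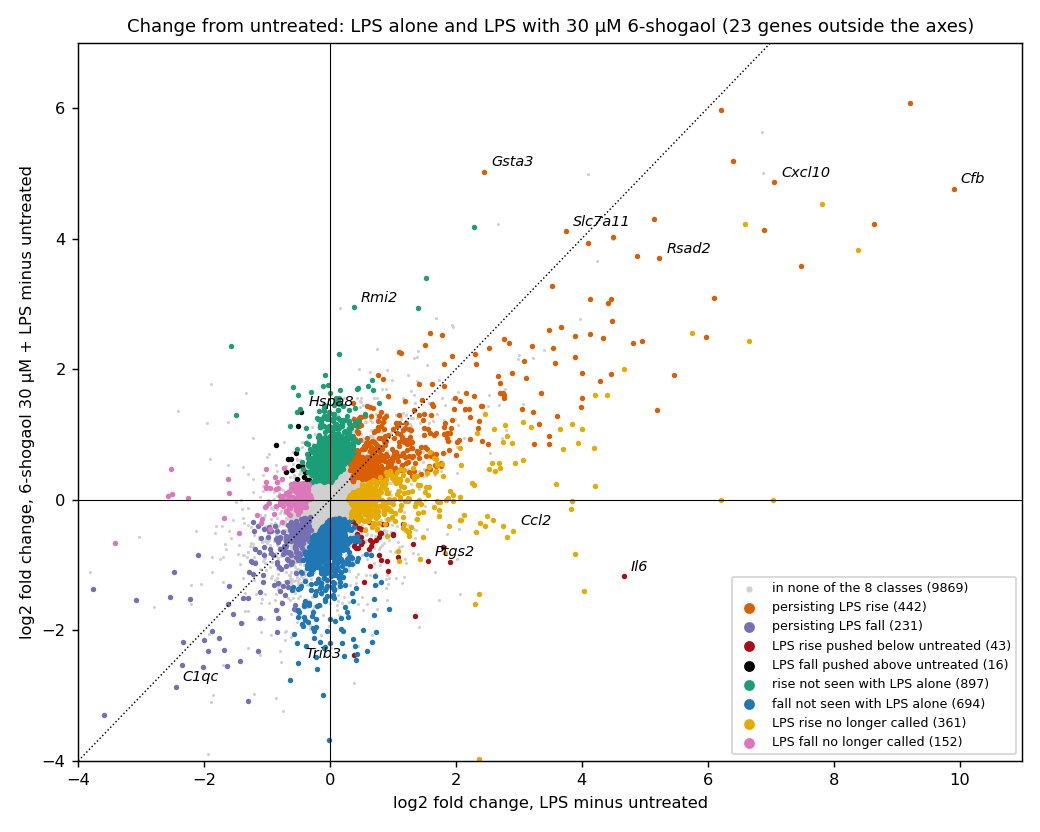
Each point is a gene, with its log2 fold change from untreated under LPS alone on the x axis and under LPS with 30 µM 6-shogaol on the y axis; colours are the 8 classes, grey is every other tested gene, the dotted line marks equal change and 23 genes lie outside the axes. Cfb and Cxcl10 lie far to the right and high, Il6 to the right and under 0, and Rmi2 and Trib3 within 1 unit of 0 on the x axis and farther from it on the y axis.

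The calls were sorted into classes by these 3 comparisons, and each class is therefore described, not tested again. Of the 973 genes raised by LPS, 442 were also higher than untreated with 6-shogaol, 361 were lower than with LPS and no longer called against untreated, 43 were called below untreated, and 127 were called against neither. Of the 528 genes lowered by LPS, 231 were also lower with 6-shogaol, 152 were higher than with LPS and no longer called, 16 were called above untreated, and 129 were called against neither. Over all genes tested, 12.1% were called lower and 13.3% higher with 6-shogaol. The 43 of 973 and the 16 of 528 are smaller shares than these. A further 897 genes rose and 694 fell that LPS alone did not call and that differed from LPS alone, named here rises and falls apart from LPS. The other 341 higher and 565 lower calls had neither a call with LPS nor a called difference from it. The comparisons with LPS and with 6-shogaol share the 2 untreated libraries.

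**Figure D2:**
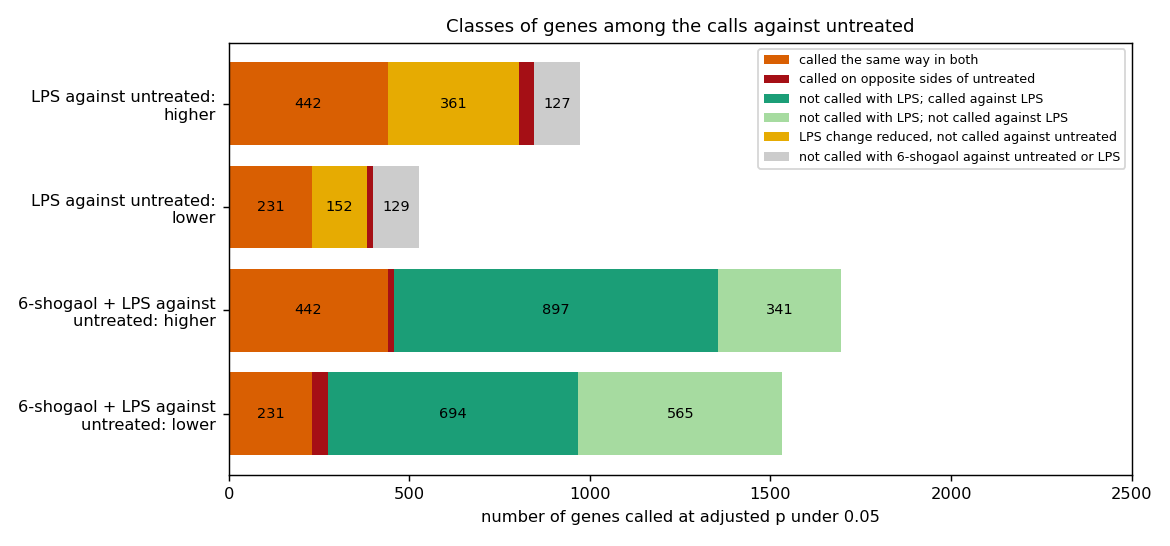
Bars count the genes called against untreated, higher or lower, with LPS alone (top pair) and with LPS and 30 µM 6-shogaol (bottom pair); colours divide each bar by the gene's call in the other comparisons. Of the 973 genes raised by LPS 442 were also raised with 6-shogaol, and 897 of the 1696 genes raised with 6-shogaol were not called with LPS and differed from it.

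Among the 370 genes that LPS raised by at least 1 log2 unit, 191 were still called above untreated, 144 were no longer called, 9 were called below and 26 were called against neither. These counts include genes that were tested because of their level in other groups: 2 of the 144, Ptprg and Gm11353, had no counts in the untreated and 6-shogaol libraries. For single genes, the retained part of the response is given as the log2 change with 6-shogaol in percent of that with LPS.

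Leaving out a library moved several class counts by over 1.5 times. Without LPS replicate 1 or 2, the genes raised by LPS and no longer called numbered 233 and 189, the falls no longer called 43 and 44, the persisting falls 90 and 93, the falls apart from LPS 435 and 440, the genes pushed below 26 and 24 and those pushed above 7 and 4. The rises apart from LPS numbered 578 without LPS replicate 1. Without 6-shogaol replicate 1 or 2, the falls apart from LPS numbered 428 and 388 and the genes pushed above 8 and 7. Without 6-shogaol replicate 2, the rises apart from LPS numbered 576, the persisting falls 128 and the genes pushed below 28. No gene called in the comparison was called in the opposite direction under any setting tried.

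The LPS rises that persisted included interferon-stimulated genes, acute-phase genes and antioxidant genes. In the interferon list, 31 of 44 measured genes were higher than untreated and 1, the immunoproteasome gene Psmb10, was lower (log2 change -0.73). The list's median was 0.91 on the log2 scale, against -0.01 over all genes tested. LPS alone called 35 of the 44 higher, with a median of 1.75, and 28 of the 44 were lower with 6-shogaol than with LPS alone. The list thus stood between the untreated and the LPS level.

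Cxcl10 encodes a chemokine for activated T cells that interferon and NF-kB both induce (chr5:92346638-92348889, GRCm38). Its level was 1.80 and 1.95 CPM in untreated cells, 245 and 257 CPM with LPS and 51.2 and 58.1 CPM with 6-shogaol and LPS. The 3 groups did not overlap, and the log2 change from untreated was 4.86 (SE 0.16, adjusted p 4.95e-11). Cxcl10 was picked for a large called change from untreated, so its place above untreated is no further support. Rsad2, which encodes the antiviral enzyme viperin, was at 9.80 and 10.0 CPM in untreated cells, 350 and 390 CPM with LPS and 127 and 130 CPM with 6-shogaol. It kept 70.8% of its LPS response on the log2 scale. Ifit1, an antiviral RNA-binding protein, was at 0.821 and 0.744 CPM, 17.7 and 17.2 CPM, and 5.31 and 7.83 CPM in the same order.

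Other interferon genes were at or near 0 counts in untreated cells, so their levels are given in place of a fold. Gbp2, a guanylate-binding protein of cell-autonomous defence, had 0.0513 and 0 CPM untreated, 20.5 and 16.4 CPM with LPS and 1.95 and 2.20 CPM with 6-shogaol. Zbp1, a sensor of Z-form nucleic acid, had 0.103 and 0.0930 CPM, 7.33 and 6.95 CPM, and 0.916 and 0.845 CPM. Rtp4 had 0.103 and 0 CPM, 5.21 and 7.81 CPM, and 0.977 and 0.958 CPM. All 3 were above untreated in both 6-shogaol libraries and below both LPS libraries. They were picked for large called changes from untreated, so their place above untreated is no further support.

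Irf7, a transcription factor of the interferon pathway chosen after its values were seen, was at 2.36 and 3.07 CPM untreated, 28.5 and 38.0 CPM with LPS and 8.06 and 5.24 CPM with 6-shogaol. It lay between the other groups.

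Cytokines and chemokines split. Of 21 measured, 8 were higher than untreated, 4 lower and 9 not called, with a median of -0.31. Over all genes tested, 13.3% were higher and 12.1% lower. LPS alone called 16 higher and 0 lower with a median of 2.36. The median of -0.31 became -0.04 without untreated replicate 1, -0.46 without untreated replicate 2, -0.20 without 6-shogaol replicate 1 and 0 with DESeq2. Among the 4 lower, Ccl9 changed by -2.02 on the log2 scale, and by -1.23 without untreated replicate 1. Its call was lost with limma on the authors' normalized signal (adjusted p 0.102). Ccl5, a chemokine for T cells and monocytes, was at 1.90 and 1.12 CPM untreated, 246 and 289 CPM with LPS and 21.5 and 14.6 CPM with 6-shogaol. Tnf, the early inflammatory cytokine, was at 16.4 and 15.6 CPM, 144 and 155 CPM, and 40.2 and 40.9 CPM, a log2 change from untreated of 1.34 (SE 0.10, adjusted p 2.59e-07). Of the others called higher, the interleukin gene Il1a changed by 1.21 on the log2 scale, Ccl3 by 0.68, Ccl4 by 1.16 and Cxcl2 by 1.91. The call of Ccl3 was lost without untreated replicate 2 (adjusted p 0.0832) and without 6-shogaol replicate 2 (adjusted p 0.109). Lta had 0 and 0.140 CPM in untreated cells and 0.488 and 0.394 CPM with 6-shogaol, and its call was lost without untreated replicate 1, without 6-shogaol replicate 1 and without 6-shogaol replicate 2 (adjusted p 0.128, 0.0962 and 0.0583).

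Inflammatory effectors and NF-kB genes were also divided between those still raised and those not. Of 29 measured effectors 16 were higher than untreated and 3 lower (median 0.47, and 0.81 without untreated replicate 1), against 25 and 0 with LPS. Cfb, complement factor B, had the largest LPS response of all tested genes, from 0.308 and 0.233 CPM to 261 and 267 CPM, and was at 7.63 and 7.32 CPM with 6-shogaol, a log2 change from untreated of 4.77 (SE 0.22, adjusted p 2.22e-09). Saa3, an acute-phase serum amyloid, went from 550 and 429 CPM to 13286 and 14080 CPM with LPS and was at 2739 and 2397 CPM with 6-shogaol. Acod1, which makes the antimicrobial metabolite itaconate, was at 99.6 and 85.9 CPM, 1203 and 1153 CPM, and 569 and 596 CPM, and kept 72.3% of its response. Hp, haptoglobin, kept 74.6% and the matrix protease gene Mmp9 68.8%.

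In the list of the NF-kB pathway and its feedback genes, 13 of 29 were higher and 3 lower, against 19 and 2 with LPS, with a median of 0.25. Over all genes tested 13.3% were higher and 12.1% lower with 6-shogaol, so the 3 lower are near that share. The count of 3 lower became 1 without 6-shogaol replicate 2. Nfkbia, the inhibitor that NF-kB itself induces, was at 48.3 and 47.2 CPM untreated, 148 and 144 CPM with LPS, and 139 and 126 CPM with 6-shogaol. It kept 91.4% of its response, and its difference from LPS was not called (log2 -0.14, adjusted p 0.32). The kinase gene Ikbke was at 67.9 and 73.3 CPM, 135 and 149 CPM, and 133 and 140 CPM, and kept 94.2%. Traf1, a signalling adaptor, kept 26.3%, at 1.23 and 0.977 CPM, 40.6 and 40.1 CPM, and 2.99 and 2.7 CPM.

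**Figure D3:**
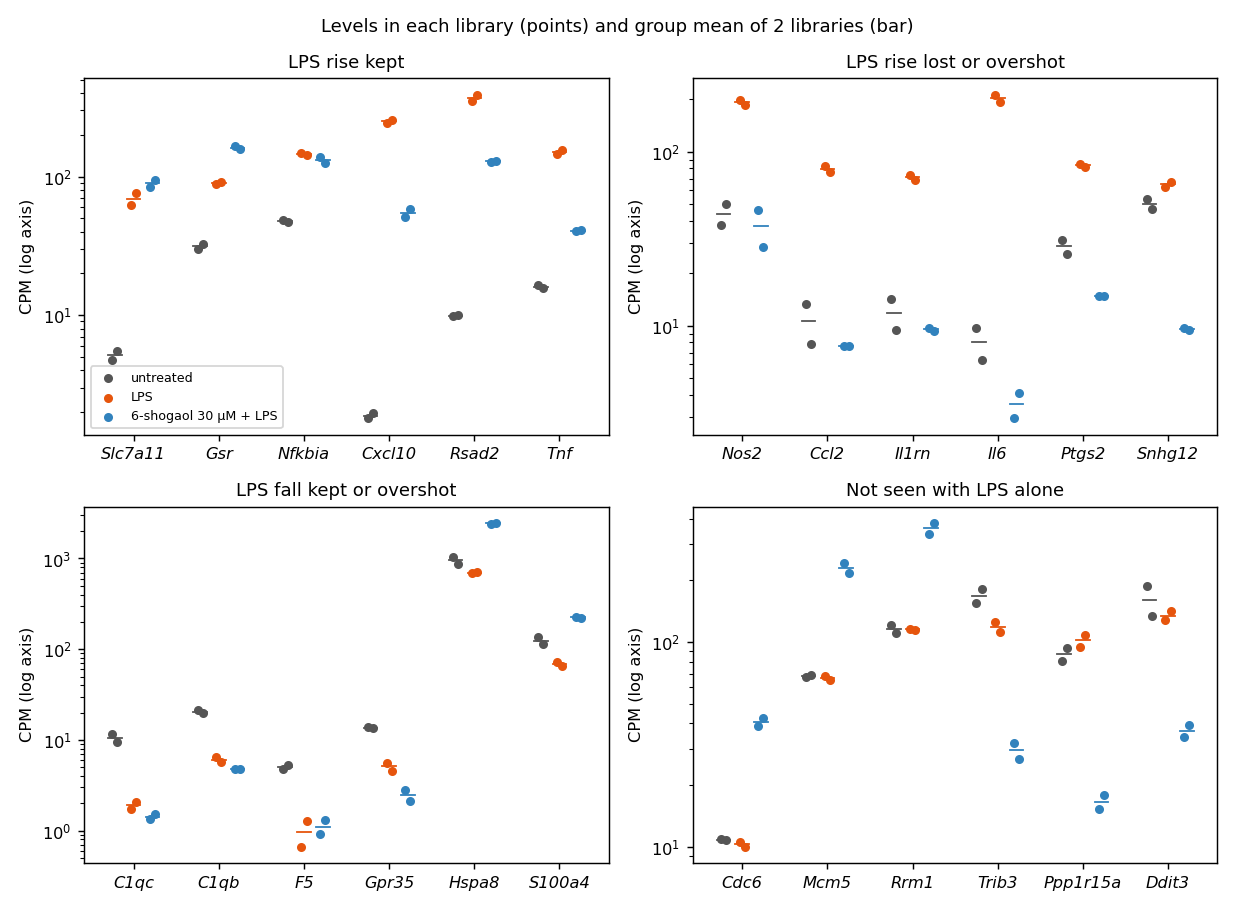
Points are the CPM of single libraries on a log axis and short bars the mean of the 2 libraries of a group, for 24 genes in 4 panels, untreated in grey, LPS in orange and 6-shogaol 30 µM with LPS in blue. Rsad2 and Tnf with 6-shogaol sit between untreated and LPS, Gsr above both, Il6 and Ptgs2 below both, and Mcm5 and Trib3 away from both.

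NRF2 targets rose further. Of 34 measured, 26 were higher than untreated and 3 lower, with a median of 1.11, against 18 higher and 1 lower with LPS (median 0.47), and 21 of the 34 were higher with 6-shogaol than with LPS alone. Slc7a11, the cystine importer that feeds glutathione synthesis, was at 4.77 and 5.54 CPM untreated, 62.7 and 75.5 CPM with LPS and 84.4 and 94.5 CPM with 6-shogaol. The groups did not overlap, the log2 change from untreated was 4.11 (SE 0.14, adjusted p 6.72e-11) and that from LPS 0.37 (adjusted p 0.029). Slc7a11 was chosen with earlier results of these data known, so the lack of overlap is no further support. Gsta3, a glutathione S-transferase, was at 0.308 and 0.279 CPM, 1.51 and 1.71 CPM, and 8.73 and 10.7 CPM, a log2 change of 5.02 from untreated and 2.58 from LPS (adjusted p 3e-05).

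Gsr, glutathione reductase, was also above LPS, and was at 30.0 and 32.7 CPM untreated, 88.0 and 90.9 CPM with LPS and 166 and 157 CPM with 6-shogaol. Me1, malic enzyme, which makes NADPH, was at 16.8 and 19.1 CPM, 35.7 and 40.7 CPM, and 84.1 and 87.5 CPM, and Gclm, the regulatory subunit of glutamate-cysteine ligase, at 35.0 and 38.4 CPM, 60.8 and 63.9 CPM, and 140 and 136 CPM. Me1, Gclm, and the thioredoxin reductase gene Txnrd1, the sulfiredoxin gene Srxn1 and the NADPH-making G6pdx, with log2 changes of 1.28, 1.20 and 1.14 from untreated, were chosen after their values were seen.

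Hmox1, heme oxygenase, behaved otherwise: 226 and 232 CPM untreated, 542 and 507 CPM with LPS, and 474 and 392 CPM with 6-shogaol. It stayed above untreated by 0.92 on the log2 scale (adjusted p 2.54e-05), and its difference from LPS was not called (log2 -0.28, adjusted p 0.075). Sqstm1, the autophagy adaptor that can sequester KEAP1, was lower than untreated, with a log2 change of -0.73. Trib3, described below with the ATF4 genes, was also among the lower members of the NRF2 list. Nfe2l1, a relative of NRF2 outside this list, changed by -0.46. Nqo1, a quinone reductase often read as an NRF2 marker, had 0.0513 and 0.140 CPM untreated and 1.10 and 1.07 CPM with 6-shogaol, low in this line. In all, 43 of the 442 persisting rises were above LPS, 153 were below it, and 246 had no called difference from LPS.

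The falls that persisted included complement C1q and lipid-handling genes. C1qc, a chain of the complement initiator C1q and a marker of microglia, was at 11.5 and 9.49 CPM untreated, 1.76 and 2.05 CPM with LPS and 1.34 and 1.52 CPM with 6-shogaol. C1qb, another chain, was at 21.2 and 19.9 CPM, 6.42 and 5.67 CPM, and 4.76 and 4.73 CPM. Their log2 changes from untreated were -2.87 (adjusted p 6.87e-07) and -2.11 (adjusted p 3.68e-06), and neither had a called difference from LPS (adjusted p 0.31 and 0.29). Gpr35, a receptor for metabolites, fell further than with LPS, from 13.9 and 13.4 CPM to 5.63 and 4.57 CPM and then to 2.81 and 2.14 CPM. The coagulation factor gene F5 and Prkar1b, a regulatory subunit of protein kinase A, changed by -2.18 and -2.02.

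Of 32 measured microglia identity genes, 10 were lower than untreated and 2 higher (median -0.24, and -0.11 without untreated replicate 1), against 11 and 3 with LPS. The shares over all genes tested were 12.1% lower and 13.3% higher. The 2 higher became 1 without either 6-shogaol replicate. Among the 10 were Aif1, Cd33, Fcgr1, Ctss and Spi1, with log2 changes of -0.66, -0.68, -0.64, -0.62 and -0.39, and the higher pair were Adgre1 (0.60) and Mef2c (0.31). Without untreated replicate 1 the calls of Aif1, Ctss and Mef2c were lost (adjusted p 0.0751, 0.0825 and 0.152), without 6-shogaol replicate 1 those of Ctss and Mef2c (0.0901 and 0.0743), and without 6-shogaol replicate 2 those of Aif1, Spi1 and Mef2c (0.0633, 0.206 and 0.112). Aif1 and Cd33, a myeloid calcium-binding protein and a sialic acid receptor, were not called with LPS. Apoe, the main lipid carrier of microglia, was at 439 and 413 CPM untreated, 184 and 184 CPM with LPS and 317 and 295 CPM with 6-shogaol, still below untreated (log2 -0.48, adjusted p 0.00292) and above LPS (log2 0.73, adjusted p 0.00011). Trem2, a lipid receptor, was at 64.2 and 59.8 CPM, 43.8 and 36.3 CPM, and 57.6 and 55.6 CPM. Its interval against untreated ran from -0.37 to 0.11.

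Genes that LPS raised and that ended below untreated numbered 43. Il6, the cytokine of the acute-phase response, was at 9.75 and 6.33 CPM untreated, 212 and 194 CPM with LPS and 2.93 and 4.11 CPM with 6-shogaol. Both treated libraries were below both untreated ones, with a log2 change of -1.18 (SE 0.23, 95% interval -1.67 to -0.68, adjusted p 0.00179). The class holds only genes called lower, so this separation is no further support. Ptgs2, the inducible cyclooxygenase that makes prostaglandins, was at 31.1 and 25.9 CPM, 84.7 and 81.9 CPM, and 14.8 and 14.8 CPM, a log2 change of -0.94 (adjusted p 2.8e-05).

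Among members of the class with a mean of 5 CPM or more in a group, the largest change was in a noncoding gene. Snhg12, which hosts small nucleolar RNAs, was at 53.3 and 46.7 CPM untreated, 62.4 and 67.0 CPM with LPS and 9.65 and 9.47 CPM with 6-shogaol, a log2 change of -2.39 from untreated (adjusted p 9.28e-09). Tcim changed by -1.26, the focal adhesion gene Lims2 by -1.09, the pseudogene Slfn10-ps by -1.01 and the immune receptor gene Slamf7 by -0.96. The call of Slamf7 was lost with DESeq2 (adjusted p 0.0907), limma on the counts (0.0545) and limma on the authors' normalized signal (0.0957). It was also lost without either untreated replicate and without 6-shogaol replicate 2, where the log2 change was -0.65. Abca1, a cholesterol exporter chosen after its values were seen, was also in the class, with a log2 change of -0.46, and its call was lost without untreated replicate 2 (adjusted p 0.142) and without 6-shogaol replicate 2 (adjusted p 0.135).

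Other inflammatory genes fell below untreated without a rise under LPS. Osm, a cytokine of the interleukin 6 family, was at 8.88 and 9.63 CPM untreated, 8.72 and 9.14 CPM with LPS and 3.05 and 3.61 CPM with 6-shogaol (log2 -1.47, adjusted p 3.26e-05). Cd14, the LPS co-receptor chosen after its values were seen, was at 141 and 115 CPM, 143 and 144 CPM, and 54.3 and 52.8 CPM (log2 -1.26, adjusted p 3.69e-06). Tlr2, also chosen after its values were seen, stayed above untreated, at 142 and 146 CPM, 286 and 269 CPM, and 203 and 195 CPM.

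The 361 LPS rises that were no longer called had a median log2 change from untreated of 0.03 with 6-shogaol, against 0.80 with LPS. For 284 of them the 95% interval against untreated lay within 1 log2 unit of 0, and for the rest the data do not place them near the untreated level. The 284 include Ptprg and Gm11353, which had no counts in either group. Their interval is computed from a change of 0 and has no width, so it does not place them either. Nos2, inducible nitric oxide synthase, was at 37.7 and 50.1 CPM untreated, 197 and 186 CPM with LPS and 46.3 and 28.1 CPM with 6-shogaol. Its untreated and 6-shogaol values overlapped, with a log2 change of -0.24 (interval -0.68 to 0.20, adjusted p 0.421), but without 6-shogaol replicate 1 it was called lower (log2 -0.64, adjusted p 0.0315).

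Wfdc21, a small secreted protein gene, was at 0.924 and 0.977 CPM untreated, 17.3 and 10.5 CPM with LPS and 0.916 and 0.958 CPM with 6-shogaol. By contrast Abcb1a, a drug efflux pump, Marcksl1 and Mir155hg, the host gene of miR-155, remained above the untreated mean by 0.79 to 1.17 on the log2 scale without a call, at levels of at most 1.24 CPM. Marcksl1 was called higher without untreated replicate 1 (adjusted p 0.0497). Ccl2, a monocyte chemokine, and Il1rn, the interleukin 1 receptor antagonist, were chosen after their values were seen. Ccl2 was at 13.4 and 7.86 CPM, 82.3 and 76.7 CPM, and 7.63 and 7.61 CPM, and Il1rn at 14.2 and 9.40 CPM, 73.1 and 68.8 CPM, and 9.71 and 9.30 CPM.

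Of the 152 LPS falls no longer called, 142 had an interval within 1 log2 unit of untreated. The largest LPS falls among the named ones were those of Fcrl1, Igfbp4 and Kbtbd11. Igfbp4, which binds insulin-like growth factors, was at 25.3 and 32.9 CPM untreated, 12.9 and 13.3 CPM with LPS and 26.9 and 22.7 CPM with 6-shogaol. Chst10, a sulfotransferase gene, was at 12.4 and 13.8 CPM, 6.90 and 6.00 CPM, and 12.3 and 11.8 CPM.

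LPS falls that ended above untreated numbered 16. Hspa8, the constitutive HSC70 chaperone of the cytosol, was at 1038 and 877 CPM untreated, 695 and 701 CPM with LPS and 2408 and 2460 CPM with 6-shogaol, a log2 change of 1.35 from untreated (SE 0.11, adjusted p 8.61e-07). S100a4, a calcium-binding protein of motile cells, was at 136 and 114 CPM, 71.8 and 65.4 CPM, and 226 and 221 CPM. Efr3b, Scfd2, Pfas (purine synthesis) and Dnajb14 (a chaperone partner of the endoplasmic reticulum) rose by 1.12, 0.71, 0.69 and 0.63. The call of Scfd2 was lost with limma on the authors' normalized signal (adjusted p 0.227).

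Among the 897 rises apart from LPS, genes of DNA replication formed a large group. Of 58 measured genes of replication and the G1/S step, 53 were higher than untreated and 0 lower, with a median of 0.85, while LPS called 2 higher and 0 lower (median -0.03). The same number, 53, were higher with 6-shogaol than with LPS alone, and 51 were in this class. Without any 1 of the 6 libraries of the untreated, LPS and 6-shogaol groups, 48 to 53 of the 58 were called higher.

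Cdc6, which loads the replicative helicase at origins (chr11:98907801-98923940, GRCm38), was at 10.9 and 10.8 CPM untreated, 10.6 and 10.0 CPM with LPS and 39.0 and 42.7 CPM with 6-shogaol, a log2 change of 1.91 (SE 0.12, adjusted p 4e-08). Mcm5, a helicase subunit, was at 67.4 and 68.8 CPM, 68.3 and 65.4 CPM, and 242 and 217 CPM. The helicase subunits Mcm2, Mcm3, Mcm4, Mcm6 and Mcm7 rose by 0.82, 1.28, 1.56, 1.46 and 0.77. Ccne2, cyclin E2 of the G1/S step, was at 19.5 and 15.3 CPM, 18 and 14.1 CPM, and 52.5 and 63.0 CPM.

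Rrm1, the large subunit of ribonucleotide reductase, was at 122 and 110 CPM untreated, 116 and 115 CPM with LPS and 338 and 381 CPM with 6-shogaol. Rmi2, part of the complex that dissolves recombination intermediates, had the largest log2 change of the list, 2.95, from 0.975 and 1.21 CPM to 9.40 and 7.61 CPM. E2f1, E2f7 and E2f8, factors of the E2F family, rose by 1.20, 1.60 and 1.34, and the call of E2f7 was lost without 6-shogaol replicate 1 (adjusted p 0.0827). The 5 members not called were Gins4, Rfc4, Tyms, Ccnd2 and Rmi1, with log2 changes of 0.13, 0.02, 0.02, 0.24 and 0.03. The Mcm and E2f genes other than Mcm5 were chosen after their values were seen.

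Genes of mitosis were called in part. Of 38 measured, 20 were higher and 2, Ccnb2 and Cenpa, lower, with a median of 0.37, and LPS called 0 in either direction. Of the 20, 19 were rises apart from LPS. The count of 20 became 13 without 6-shogaol replicate 2. Nuf2, a kinetochore protein, was at 51.7 and 38.2 CPM untreated, 46.3 and 45.1 CPM with LPS and 84.7 and 101 CPM with 6-shogaol. The mitotic cyclin Ccnb1 and the kinase gene Plk1, both chosen after their values were seen, had log2 changes of 0.01 and 0.16 (adjusted p 0.966 and 0.23). In the p53 list 4 of 27 were higher and 5 lower, near the 13.3% and 12.1% over all genes tested, and the cell cycle inhibitor Cdkn1a fell from 50.7 and 64.9 CPM to 36.3 and 30.0 CPM. The p53 counts became 2 higher and 3 lower without 6-shogaol replicate 2, and the 5 lower became 3 without untreated replicate 1 and 2 without 6-shogaol replicate 1.

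Most genes of cholesterol synthesis rose too. Of 23 measured genes 18 were higher and 0 lower, with a median of 0.60, against 3 and 0 with LPS, and 13 of the 18 were rises apart from LPS. Acat2, which makes acetoacetyl-CoA for the pathway, was at 29.6 and 28.9 CPM untreated, 37.5 and 30.4 CPM with LPS and 80.4 and 77.9 CPM with 6-shogaol. Insig1, the sterol sensor that holds SREBP back and is itself an SREBP target, was at 61.2 and 56.1 CPM, 139 and 117 CPM, and 266 and 288 CPM, above LPS as well. Hmgcs1, an early enzyme of the pathway chosen after its values were seen, had a log2 change of 0.28 and was not called (adjusted p 0.0534).

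The LXR list split, with 3 of 11 higher and 5 lower, against 13.3% and 12.1% over all genes tested. The lipogenic genes Srebf1, Scd2 and Lpcat3 rose by 0.56, 0.64 and 0.54, while Apoc1, Apoc2, Apoe, Abca1 and Nr1h3, which encodes LXRα, changed by -1.49, -0.76, -0.48, -0.46 and -1.61. Nr1h3 was at 8.06 and 9.63 CPM untreated, 7.81 and 7.90 CPM with LPS and 2.69 and 3.10 CPM with 6-shogaol. The call of Apoc2 was lost with DESeq2 (adjusted p 0.0760) and with limma on the authors' normalized signal (adjusted p 0.0616). It was also lost without untreated replicate 1 and without 6-shogaol replicate 1, with log2 changes of -0.59 and -0.55.

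Cytosolic chaperones rose in part. Of 31 HSF1 targets and chaperones 10 were higher and 0 lower (median 0.23), against 3 and 1 with LPS, and 6 were higher without 6-shogaol replicate 1 and likewise without replicate 2. Hsph1, a large HSP110 chaperone, was at 63.9 and 59.0 CPM untreated, 55.5 and 54.7 CPM with LPS and 113 and 116 CPM with 6-shogaol. The stress-inducible pair Hspa1a and Hspa1b are near-identical copies, so their counts are uncertain. Hspa1a was at 0.411 and 0.698 CPM untreated and 1.40 and 0.902 CPM with 6-shogaol (adjusted p 0.194), and Hspa1b at 0.513 and 0.605 CPM and 2.32 and 1.24 CPM (adjusted p 0.022). The call of Hspa1b was lost with DESeq2 (adjusted p 0.0761) and with limma on the authors' normalized signal (adjusted p 0.0771). It was also lost without 6-shogaol replicate 1, untreated replicate 1 or untreated replicate 2, with log2 changes of 1.14, 1.54 and 1.80. In the endoplasmic reticulum list, 8 of 23 were higher and 3 lower, against 13.3% and 12.1% over all genes tested. Rises included those of Sec61b (0.84), Sdf2l1 (0.67) and Calr (0.60). The 3 lower became 1 without untreated replicate 2 or 6-shogaol replicate 1 and 0 without 6-shogaol replicate 2.

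**Figure D4:**
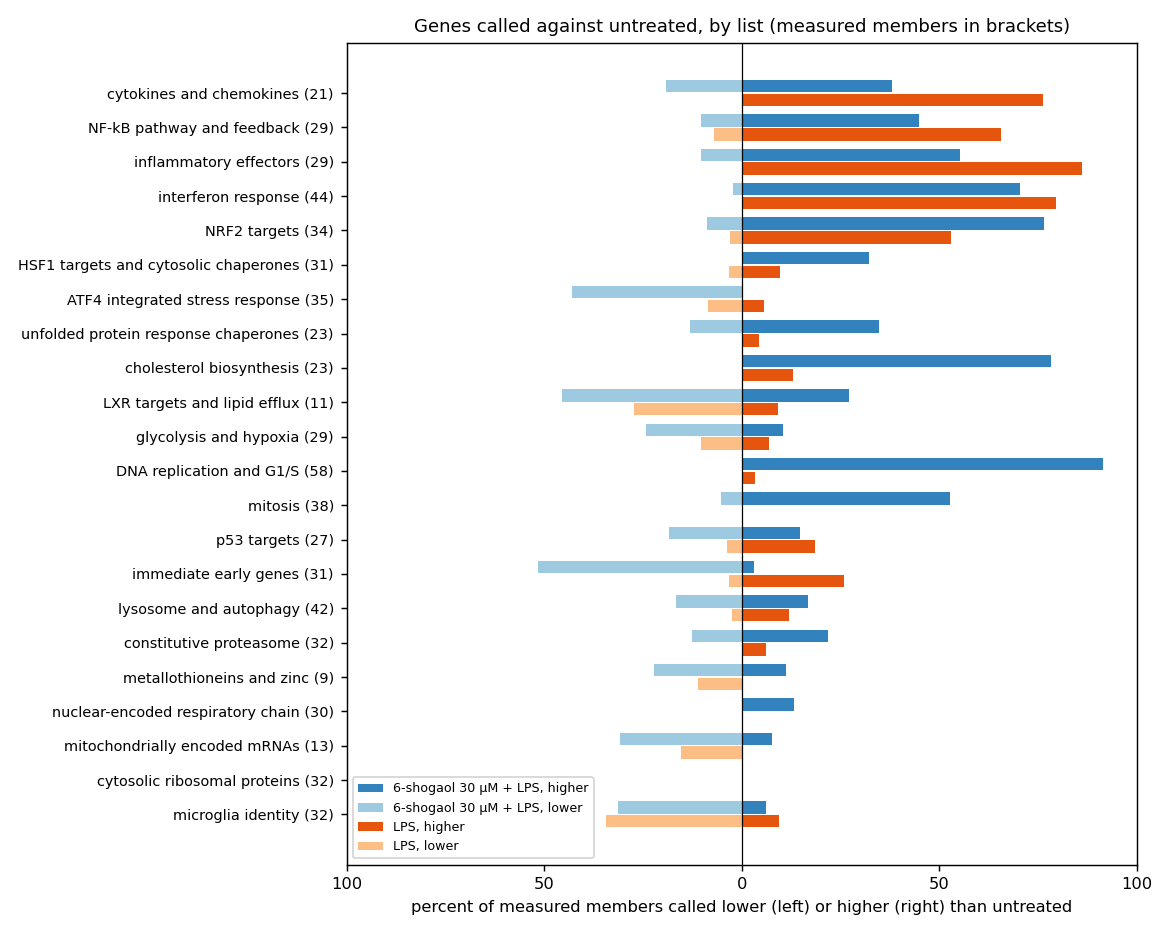
Bars give the percent of the measured members of each list called higher (right) or lower (left) than untreated, blue for 6-shogaol 30 µM with LPS and orange for LPS alone, with the number measured in brackets. The replication and cholesterol lists have long blue bars on the right and short orange ones, the ATF4 list has 15 of 35 members lower and 0 higher in blue, and the interferon list long bars of both colours.

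The 694 falls apart from LPS included ATF4 stress genes. Of 35 measured genes of the integrated stress response, 15 were lower than untreated and 0 higher (median -0.22), and 11 of the 15 were falls apart from LPS. The median became -0.33 without untreated replicate 1 and -0.37 without 6-shogaol replicate 1, and 1 gene was called higher without 6-shogaol replicate 2. LPS called 2 higher and 3 lower. Trib3, a pseudokinase induced by ATF4 and CHOP, was at 155 and 181 CPM untreated, 125 and 112 CPM with LPS and 32.1 and 26.9 CPM with 6-shogaol, a log2 change of -2.51 (SE 0.17, adjusted p 1.21e-07). Ppp1r15a, which encodes GADD34, the phosphatase subunit that ends the response, was at 80.7 and 93.8 CPM, 94.9 and 108 CPM, and 15.2 and 17.8 CPM. Ddit3, which encodes CHOP, was at 187 and 134 CPM, 128 and 141 CPM, and 34.4 and 39.1 CPM.

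Atf4 itself, chosen after its values were seen, fell from 597 and 522 CPM to 321 and 347 CPM (log2 -0.74, adjusted p 0.000172). Asns, asparagine synthetase and also chosen after its values were seen, changed by -0.39 (adjusted p 0.0306), a call lost without untreated replicate 1 or either 6-shogaol replicate (adjusted p 0.0983, 0.116 and 0.141), while Psat1, Mthfd2 and Chac1 changed by 0.07, 0.04 and -0.08 without a call. Slc7a11, whose upstream region holds a pair of amino acid response matches, rose, as described with the NRF2 targets.

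Immediate early genes also fell. Of 31 measured, 16 were lower than untreated and 1 higher (median -0.39), against 1 and 8 with LPS, and without untreated replicate 2 the 1 higher became 2. Of the 16, 8 were falls apart from LPS, 3 were LPS rises pushed below untreated and 1 was a persisting LPS fall. Fos, a subunit of AP-1, was at 6.47 and 5.63 CPM untreated, 2.78 and 2.67 CPM with LPS and 1.10 and 1.3 CPM with 6-shogaol. Klf6, a zinc finger factor, was at 186 and 178 CPM, 207 and 197 CPM, and 77.1 and 84.0 CPM. The AP-1 subunit Jund changed by -1.26 and the phosphatase gene Dusp5 by -1.23. Egr2 was low, at 0.513 and 1.07 CPM untreated and 0.0611 and 0.282 CPM with 6-shogaol, and its call was lost with DESeq2 (adjusted p 0.0774). The call was also lost without untreated replicate 2 and without 6-shogaol replicate 1, with log2 changes of -1.49 and -1.48.

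In the list of glycolysis and hypoxia genes, 3 of 29 were higher and 7 lower, against 13.3% and 12.1% over all genes tested. Of the 7, 4 were falls apart from LPS and 3 were persisting LPS falls. Ndrg1, a hypoxia-induced gene, was at 73.3 and 87.6 CPM untreated, 59.7 and 49.6 CPM with LPS and 29.2 and 23.6 CPM with 6-shogaol, a log2 change of -1.61 (adjusted p 9.72e-07). Ankrd37, Ero1l, Vegfa, Bnip3, Egln3 and Egln1 changed by -1.07, -0.76, -0.69, -0.66, -0.58 and -0.55. The 3 higher, Hk1, Pfkm and Pgam1, became 0 without untreated replicate 1 or 6-shogaol replicate 1 and 5 without untreated replicate 2, and the call of Egln3 was lost without 6-shogaol replicate 2 (adjusted p 0.0647). That of Egln1 was lost without untreated replicate 2 and without 6-shogaol replicate 2 (adjusted p 0.11 and 0.127).

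Outside the lists, Soat2, which esterifies cholesterol, was at 68.0 and 58.2 CPM untreated, 58.3 and 67.7 CPM with LPS and 13.7 and 13.7 CPM with 6-shogaol, a log2 change of -2.20 (adjusted p 1.82e-08). Krt23, a keratin, was at 33.8 and 27.0 CPM, 24.0 and 26.8 CPM, and 7.51 and 7.55 CPM. Dner, a Notch ligand, was at 4.98 and 2.65 CPM, 4.78 and 6.09 CPM, and 1.47 and 0.451 CPM. For all 3 genes both 6-shogaol libraries were below every untreated and LPS library. The 3 were picked for large called falls, so this separation is no further support.

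The remaining lists held few calls or calls in both directions, where 13.3% of all genes tested were higher and 12.1% lower. Of 42 lysosome and autophagy genes 7 were higher, among them the lysosomal acid lipase gene Lipa (0.98), and 7 lower, among them Tfeb, the regulator of lysosomal genes (-0.87), near the shares over all genes. The 7 lower became 4 without untreated replicate 1, and 2 and 4 without 6-shogaol replicates 1 and 2. Of 32 genes in the constitutive proteasome list 7 were higher and 4 lower, and 1 of the 4 was Nfe2l1, which is not a subunit. Psmd1 was at 101 and 101 CPM untreated and 218 and 223 CPM with 6-shogaol (log2 1.13). Psmb6 was at 654 and 556 CPM and 403 and 370 CPM (log2 -0.65). The 7 became 11 without untreated replicate 1 and the 4 became 2 without 6-shogaol replicate 2. Of 32 cytosolic ribosomal protein genes 0 were called in either direction by edgeR, and 3 were called lower without untreated replicate 2.

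The other doses and the other compound place these classes side by side with the comparison, all against the same untreated libraries. For the rises apart from LPS, the median log2 change was 0.56 with 30 µM 6-shogaol, 0.07 with 10 µM 6-shogaol, -0.01 with 30 µM 6-gingerol and -0.01 with LPS. For the falls apart from LPS it was -0.66, -0.14, -0.06 and -0.03 in the same order. The LPS rises no longer called had medians of 0.03, 0.58, 0.72 and 0.80, and the genes pushed below untreated -0.65, 0.34, 0.57 and 0.66. Il6 had a mean of 29.2 CPM with 10 µM 6-shogaol, Cdc6 11.6 CPM and Trib3 116 CPM. The classes were chosen on the first and last of these 4 groups, and no test was run on the medians.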

How the data were processed

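Messenger RNA was sequenced in 12 libraries of BV2 cells, 6 groups of 2. Per the file headers, the authors deposited an RSEM table per library, whose expected counts (estimated reads per gene, 7.03% of values not whole) were used, with gene length and effective length in bases, which gave the mean fragment length of a library. The authors also deposited a table of a normalized signal per gene, whose normalization is not given in the sources used here; it served as an alternative. Per the submitters' processing notes, the tools were DESeq2 1.44.0, R 4.4.2, RSEM 1.3.3, STAR 2.7.11b, FastQC 0.12.1 and Trimmomatic 0.39. Symbols and positions are from GENCODE M21 (GRCm38), which matched 97.8% of identifiers.

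Expected counts were rounded, filtered with filterByExpr, scaled by TMM and fitted in edgeR 4.0.16 (R 4.3.3) with 6 group means over all 12 libraries. The quasi-likelihood F test, 2-sided and robust, was adjusted by Benjamini-Hochberg over the 12705 genes tested. The common biological coefficient of variation was 9.45%, and the median 95% interval was 0.29 log2 units to each side. The fit was also run on simulated counts with known changes in a small set of genes and no replicate effect. Its outcome is not given here and does not vouch for the calls. Library totals bound the precision of low genes.

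The members, classes and lists were chosen with earlier results of these data known. Genes are named by a rule: the 10 largest called changes each way at 5 CPM or more, the 6 largest of each class and list, and a set of inflammatory, stress and cell cycle genes. Markers outside that rule were named as checks. Abca1, Asns, Atf4, Ccl2, Ccl3, Ccl4, Ccnb1, Ccnb2, Cd14, Cenpa, Chac1, Ctss, Egln1, Hk1, Il1a, Il1rn, Irf7, Mef2c, Mthfd2, Pfkm, Pgam1, Plk1, Psat1, Psmb10, Spi1, Tlr2 and the other genes outside it were chosen after their values were seen. Alternatives were other scalings, DESeq2 1.42.0, limma 3.58.1, no filter, fewer groups, the replicate block, fragment length and leaving out each library.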

Additional observations from a re-analysis of the deposited data

How the results depend on the processing

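Leaving out 1 library moved the count of genes called lower from 796 to 1359 (1533 with all), persisting falls from 90 to 284 (231), genes pushed below untreated from 24 to 35 (43) and above it from 4 to 12 (16), rises apart from LPS from 576 to 940 (897), falls apart from LPS from 388 to 687 (694), and LPS rises and falls no longer called from 189 to 387 (361) and from 43 to 195 (152). With the untreated, LPS and 30 µM 6-shogaol groups fitted alone, 28 genes were pushed below, 7 above, and 94 falls were no longer called. With limma on the authors' normalized signal, persisting falls were 116, genes pushed above 6 and falls no longer called 80. Fits with fewer libraries have fewer residual degrees of freedom; otherwise the cause was not tested.

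The replicate numbers were not shown to pair the libraries: the replicate differences of the untreated and 6-shogaol groups correlated at -0.188 across genes. A replicate block over all 12 libraries gave 1723 higher and 1558 lower. Chosen after seeing the data, a fit of the 2 compared groups gave 1097 and 995, with a replicate block 676 and 550, and with the block crossed 2024 and 1922. In the blocked fit of 2 groups, 9 immediate early genes (16), 11 mitosis genes higher (20) and 3 chaperones (10) were called. Scaling by library totals gave 1322 higher and 1758 lower and moved the median of all genes by -0.05. Of 2832 values of 158 named genes, 2713 kept direction and side of the threshold, 111 lost the call, 8 gained it and 0 reversed. Of these genes 122 were the same in all 18 settings, but they were named mainly for large changes. Of all 3229 calls, the fit of the 2 compared groups kept 63.7%. With a replicate block that fit kept 36.9%, and with the block crossed 97.5%. Without the filter on low counts, Marcksl1 and Mir155hg were called higher (adjusted p 0.0491 and 0.0264). Depth limits genes under about 1 CPM.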

Other observations

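Host genes of small nucleolar RNAs were looked at after the values of Snhg12 were seen. Of 11 measured, 6 were lower than untreated with 6-shogaol and LPS and 0 higher (median log2 change -0.54), against 1 called with LPS, Snhg12, which was higher. Zfas1 was at 240 and 189 CPM untreated, 258 and 249 CPM with LPS and 65.8 and 72.0 CPM with 6-shogaol. Gas5 was at 581 and 352 CPM, 438 and 463 CPM, and 211 and 267 CPM, and Snhg5 at 79.7 and 51.2 CPM, 104 and 110 CPM, and 20.6 and 32.3 CPM. Snhg14, Snhg20 and Snhg6 changed by -0.02, 0.24 and -0.15 with no call (adjusted p 0.941, 0.298 and 0.366, edgeR). The family was picked on these libraries, so its count is a description.

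Of 13 mitochondrially encoded mRNAs, 4 were lower and 1 higher than untreated (median -0.53), and LPS called 2 lower. The median became -0.11 without untreated replicate 1 and -0.94 without untreated replicate 2. Cytochrome b, mt-Cytb, was at 7652 and 4703 CPM untreated, 3927 and 4066 CPM with LPS and 2477 and 3273 CPM with 6-shogaol. The smaller mt-Nd3 was at 105 and 108 CPM, 62.4 and 70.9 CPM, and 43.8 and 40.9 CPM. In contrast mt-Co1, the most abundant of those named, was at 30710 and 26288 CPM, 33425 and 31056 CPM, and 35770 and 42863 CPM, and its call was lost without LPS replicate 1 and without LPS replicate 2, untreated replicate 2 or 6-shogaol replicate 2 (adjusted p 0.0515, 0.106 and 0.216 for the last 3, edgeR). Without the filter on low counts 9 of the 13 were called lower. Of 30 nuclear-encoded respiratory chain genes 4 were higher, the 13.3% seen over all genes tested, and 0 lower. The counts became 10 higher and 0 lower without untreated replicate 1, 3 and 3 without untreated replicate 2, 1 and 1 without 6-shogaol replicate 1, and 2 and 0 without 6-shogaol replicate 2.

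Of 9 metallothionein and zinc genes 1 was higher and 2 lower, against 13.3% and 12.1% over all genes tested. These counts changed without untreated replicate 1 and without either 6-shogaol replicate. The 2 astrocyte-list genes high enough to be tested, Aldoc and Gja1, were higher, by 0.52 and 0.63, the call of Gja1 being lost without 6-shogaol replicate 1 (adjusted p 0.106, edgeR), while Gfap, Aqp4, Sox9 and Slc1a3 of that list were at 0 in the libraries compared. Of 3 tested genes of the oligodendrocyte list, 3 of the fibroblast and endothelial list and 2 of the lymphocyte and neutrophil list, 0 were called by edgeR.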
